A study of Mus musculus with 2 samples.

Results

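The AP-1 transcription factor family was followed in TgS1 cells, a mouse Schwann cell line, through 10 genes chosen by name from the 55323 rows of the deposited expression table. These were the JUN protein genes Jun, Junb and Jund, the FOS protein genes Fos, Fosb, Fosl1 and Fosl2, and the related genes Atf3, Batf and Batf3. All 10 names matched 1 row each. Both groups carried the same genotype, given in the labels as TTR V30M tg, a transgene for the V30M variant of human transthyretin. They differed in the medium of long-term culture, which was DMEM, a standard basal medium, or SCM, a name that is not written out in the labels. The cells are 1 line, and the labels give no promoter for the transgene. There was 1 library of total RNA per medium, so no difference below has a replicate check, and no SD or p-value is given.

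AP-1 is a dimer of basic leucine zipper (bZIP) proteins. JUN proteins pair with each other, with FOS proteins or with ATF and BATF proteins, whereas FOS proteins need a partner of another class to bind DNA. The dimers bind the TPA response element TGAGTCA or the cAMP response element TGACGTCA, and the kinases JNK and ERK control both the transcription and the phosphorylation of several members. In Schwann cells, the glia of peripheral nerves, JUN is known as a central regulator of the repair state after nerve injury and as an opponent of myelin genes. ATF3 is a stress-induced member that nerve injury induces as well.

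Promoters were planned for Jun, Fos, Fosl1, Fosl2 and Atf3, and the 4 that were found are shown. These belong to the 4 members with the highest levels in DMEM, which held most of the family's RNA. They include 1 of the 2 members at least 2-fold lower in SCM. RefSeq windows on GRCm38.p6 run from 250 bases before to 50 bases after the annotated start. They were found for 9 of the 10 members, all except Fosl1. The Jun window lies at chr4:95052173-95052472 on the minus strand, the Fos window at chr12:85473640-85473939 on the plus strand, the Fosl2 window at chr5:32136222-32136521 on the plus strand and the Atf3 window at chr1:191183284-191183583 on the minus strand. In the GENCODE M21 annotation used below, the Atf3 and Fosl2 windows lie inside the spans of their genes. The outer starts of those spans, at 191218039 for Atf3 and 32135801 for Fosl2, are outside the windows and were not searched. Capitals mark the site TGACATCA in Jun and the pentamer TGACG, or its reverse complement CGTCA, in Fos and Atf3. Fosl2 has no capitals because none of the sequences searched was found there.
Jun promoter: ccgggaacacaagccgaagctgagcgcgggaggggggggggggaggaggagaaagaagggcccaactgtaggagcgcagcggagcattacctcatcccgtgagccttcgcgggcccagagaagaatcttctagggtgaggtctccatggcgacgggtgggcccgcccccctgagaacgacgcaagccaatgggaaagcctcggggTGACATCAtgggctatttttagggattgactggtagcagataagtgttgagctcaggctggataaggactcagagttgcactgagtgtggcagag
Fos promoter: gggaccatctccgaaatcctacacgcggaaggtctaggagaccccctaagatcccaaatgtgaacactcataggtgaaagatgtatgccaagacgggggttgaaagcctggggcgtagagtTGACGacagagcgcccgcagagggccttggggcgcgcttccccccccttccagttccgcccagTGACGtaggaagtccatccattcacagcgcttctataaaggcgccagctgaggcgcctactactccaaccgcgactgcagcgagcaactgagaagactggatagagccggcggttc
Fosl2 promoter: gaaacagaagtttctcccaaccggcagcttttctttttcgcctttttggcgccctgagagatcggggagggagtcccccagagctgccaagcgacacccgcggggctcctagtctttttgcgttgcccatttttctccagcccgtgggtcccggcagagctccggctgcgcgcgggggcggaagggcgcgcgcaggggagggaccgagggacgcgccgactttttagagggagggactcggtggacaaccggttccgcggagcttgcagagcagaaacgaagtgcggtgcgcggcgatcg
Atf3 promoter: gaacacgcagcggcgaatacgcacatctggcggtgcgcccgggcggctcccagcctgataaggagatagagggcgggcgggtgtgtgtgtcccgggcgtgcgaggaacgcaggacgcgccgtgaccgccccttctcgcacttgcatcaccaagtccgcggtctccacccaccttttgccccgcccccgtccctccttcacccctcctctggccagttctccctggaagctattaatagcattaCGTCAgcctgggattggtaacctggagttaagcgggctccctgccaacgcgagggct

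Both strands were searched for TGAGTCA, TGACGTCA, the variant TGACATCA, the composite C/EBP-ATF site TGATGNAAT and the CArG box that serum response factor binds. Of the 9 windows, 1 held a match. Sites more than 250 bases before a start lie outside the windows, so their absence from a promoter cannot be read from this search. Jun had TGACATCA from 45 to 38 bases before its start, a sequence present in 3.62% of all 32851 promoter windows of this length. For the other sequences the shares of all windows were 5.20% for TGAGTCA, 1.79% for TGACGTCA, 0.965% for TGATGNAAT and 1.63% for the CArG box. The pentamer TGACG, which lies inside the cAMP response element, was searched for after the windows had been seen. It occurred in 5 of the 9 windows (Junb, Fos, Fosb, Atf3 and Batf) and in 20.8% of all windows. Fos held it at 2 places, from 129 to 125 and from 66 to 62 bases before its start, and Atf3 held it from 7 to 3 bases before its start. The Fosl2, Jund and Batf3 windows held none of these sequences. The Jund window, chr8:70697489-70697788, ends before the start of Jund at 70698949 in the GENCODE M21 annotation used below. The Batf3 window, chr1:191098164-191098463, begins past the start of Batf3 at 191097847 there. Sequence around those starts was thus not searched.

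The genes lie on 7 chromosomes in the GENCODE M21 annotation of GRCm38. Jun (ENSMUSG00000052684) is at chr4:95049034-95052222, Fos (ENSMUSG00000021250) at chr12:85473890-85477273, Fosl1 (ENSMUSG00000024912) at chr19:5447547-5455946, Fosl2 (ENSMUSG00000029135) at chr5:32135801-32157842 and Atf3 (ENSMUSG00000026628) at chr1:191170296-191218039. Atf3 and Batf3 are neighbours on chromosome 1, 61.4 kb apart, and Fos and Batf lie 209 kb apart on chromosome 12 with the bZIP gene Jdp2 between them. The longest 3' untranslated region among each gene's coding transcripts was searched for the adenine-uridine motif TTATTTATT, which destabilises many immediate early messages. The motif was present in Fos and Fosl2 and in 7.42% of 21707 genes. Among genes with a region of like length, 4.47% held it for Fos and 21.0% for Fosl2. Fos had 4 copies of the shorter ATTTA in 818 bases, against a median of 1 in 2776 genes of like length. Fosl2 had 8 in 4656 bases, against a median of 8 in 1255 genes.

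Levels are FPKM, a fragment measure divided by gene length and by the reads of the library, so they can be compared between genes. The DMEM library held 29085791 reads and the SCM library 36666676, recovered from the FPKM values. Intervals are 95% exact intervals of the read counts. They cover counting error only, and PCR copies of a molecule count as separate reads in them. The difference between media is given as log2 of SCM over DMEM after adding 1 FPKM to both, and 2-fold on that scale is called higher or lower. Rows had to reach 1 FPKM in at least 1 library to be tested, and the added 1 FPKM understates the difference of low genes. In RNA of a whole culture, a lower level in each cell and fewer cells at a high level cannot be told apart. RNA levels do not measure the phosphorylation of these proteins.

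The Schwann cell label was checked against 11 markers, and all 11 were measured in both media, among them the lineage factor gene Sox10. Of 8 lymphocyte markers 7 had 0 reads in both libraries, and the other, Irf4, had 8.04 FPKM in DMEM and 12.2 in SCM. The 5 endothelial markers were all under 1 FPKM. Of 8 macrophage markers 7 were under 1 FPKM, among them Ptprc with 1 read in DMEM and 11 in SCM, while Cd68 had 1.34 and 1.45 FPKM. The summed FPKM of the 7 fibroblast markers was 0.913 in DMEM and 3.26 in SCM, most of it Col1a2, while Col1a1 and Lum had 0 reads. The neuronal list summed to 60.3 and 45.3 FPKM through Tubb3, while Rbfox3 and Syt1 had 0 reads. The perineurial list was led by Moxd1, at 37.7 and 34.6 FPKM, while Cldn1 had 0 reads. A list of 5 hepatocyte markers summed to 1.71 and 5.77 FPKM, nearly all of it the mouse gene Ttr, at 1.71 and 5.73 FPKM, while Alb had 0 reads in both. The part of these cell types in the values of the members was not tested.

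Of the 10 members, 8 reached 1 FPKM in 1 or both libraries. Of these 8, Fosl1 and Fosl2 were at least 2-fold lower in SCM, 2 members, against 2.8% of the 12334 rows tested. At least 2-fold higher were 0 members, against 3.1% of rows, so 2 of 8 were 2-fold apart in either direction, against 5.89%. Below 0 lay 7 of the 8, as did 54.2% of all rows tested. The median log2 ratio of the 8 was -0.46 and that of all rows tested -0.03. The counting interval of the plain FPKM ratio lay below 1 for 6 members, as for 36.3% of all rows, and above 1 for 1 member, as for 29.2%.

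**Figure D1:**
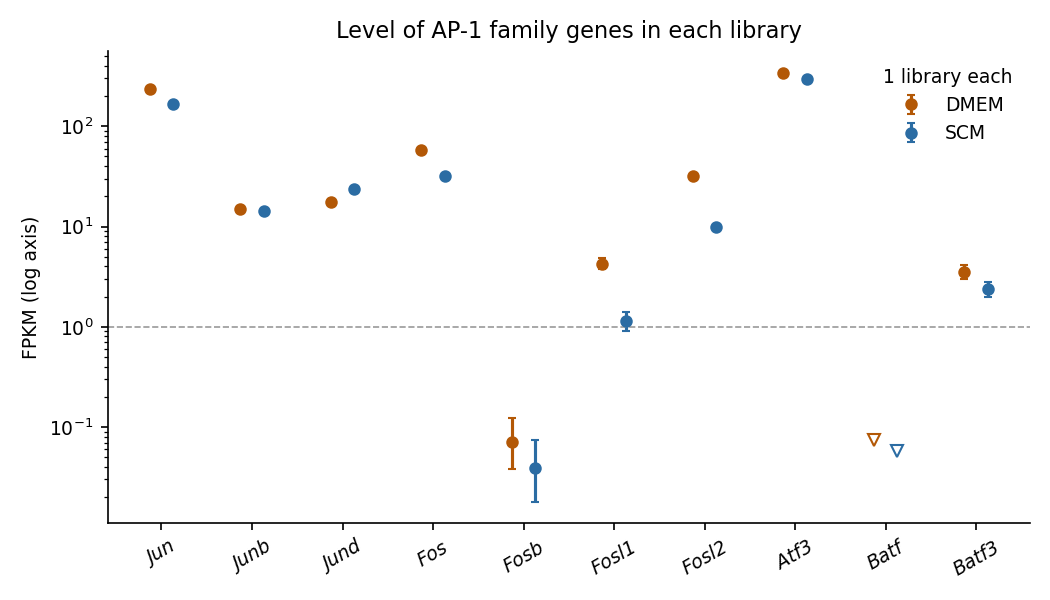
FPKM of the 10 members on a log axis, with 1 point for the DMEM library and 1 for the SCM library; bars are 95% exact counting intervals, mostly smaller than the points, and open triangles stand for the level that 3 reads would give where 0 were counted. Atf3 and Jun lie above 100 FPKM in both media, Fosb lies under 1 FPKM (dashed line), and Batf had 0 reads.

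Among the JUN protein genes, Jun was far the most abundant in both media. Its level was 236 FPKM in DMEM, from 21906 reads, and 168 FPKM in SCM, from 19690 reads, which ranked 95 and 142 among all rows. The SCM level was 1.40-fold lower (counting interval 1.38 to 1.43), a log2 ratio of -0.49, which stayed within 2-fold. Of the rows tested, 10.1% had a log2 ratio at or below that of Jun.

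Junb, which encodes a JUN protein that often restrains JUN at its targets, stood at 15.1 FPKM in DMEM (1008 reads) and at 14.2 FPKM in SCM (1195 reads). The interval of its SCM over DMEM ratio, 0.864 to 1.02, held 1. Jund, the JUN protein gene least induced by growth signals, went the other way. DMEM gave 17.8 FPKM (861 reads) and SCM 23.6 FPKM (1443 reads), 1.33-fold more (1.22 to 1.45). Its log2 ratio of 0.39 was the 1 positive value among the measured members, and 86.6% of rows tested lay at or below it.

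The make-up of the class differed between the libraries. Jun held 87.8% of the summed FPKM of the JUN protein genes in DMEM and 81.7% in SCM. The share of Jund was 6.60% in DMEM and 11.5% in SCM, and that of Junb 5.60% and 6.87%. Jun exceeded Jund 13.3-fold in DMEM and 7.13-fold in SCM. The class summed to 269 and 206 FPKM.

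All 3 measured FOS protein genes had lower levels in SCM, with counting intervals that excluded 1. Fos, the classical immediate early gene, stood at 57.9 FPKM in DMEM (3960 reads) and at 32.0 FPKM in SCM (2758 reads), a 1.81-fold lower level (1.72 to 1.90). Its log2 ratio of -0.84 stayed within 2-fold. At a threshold of 1.5-fold Fos would join Fosl1 and Fosl2, for 3 members lower, against 7.52% of rows, and 0 higher, against 7.9%.

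Fosl2 encodes FRA-2, a FOS protein that lacks the strong activation domain of FOS. DMEM gave 32.0 FPKM (8998 reads) and SCM 9.82 FPKM (3486 reads), a 3.25-fold lower level (3.13 to 3.38). Its log2 ratio of -1.61 was the lowest of the family, and 84 of the 12334 rows, 0.681%, lay at or below it, itself included.

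Fosl1 encodes FRA-1, whose gene is itself a known target of AP-1 in other cells. Its level was 4.24 FPKM in DMEM, from 251 reads, and 1.14 FPKM in SCM, from 85 reads. This was 3.72-fold lower (2.90 to 4.82), with a log2 ratio of -1.29. With 3 FPKM added instead of 1 its log2 ratio was -0.81, short of 2-fold, and Fosl2 was the 1 member called. On the table, 1163 bases of the Fosl1 row (57.2% of its length) also belong to Ccdc85b on the opposite strand. Ccdc85b had 411 and 527 reads, with an SCM over DMEM ratio of 1.02 (0.892 to 1.16), and the part of shared reads in the Fosl1 value was not tested.

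Fosb, whose products accumulate in repeatedly stimulated neurons, stood at 0.0716 FPKM in DMEM (13 reads) and at 0.0393 FPKM in SCM (9 reads). Both values are near the limit of detection, and no difference could be seen at this depth (ratio interval 0.207 to 1.39).

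**Figure D2:**
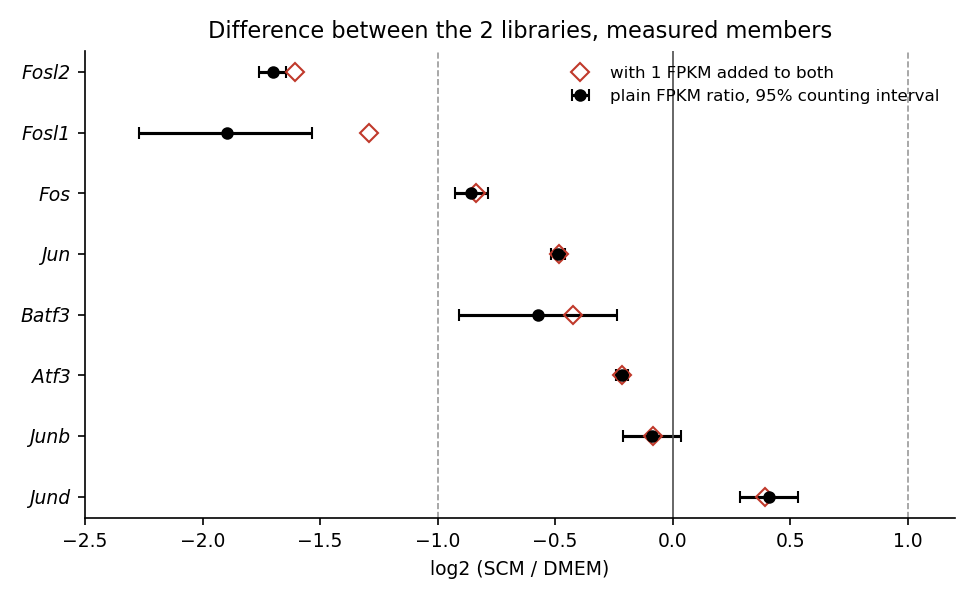
Log2 ratio of SCM over DMEM for the 8 measured members; black points are plain FPKM ratios with 95% exact counting intervals, open diamonds the ratios after adding 1 FPKM to both, and dashed lines mark 2-fold. Fosl2 and Fosl1 lie beyond 2-fold at -1.61 and -1.29 (diamonds), and Jund lies above 0 at 0.39.

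The summed level of the FOS protein genes was 94.2 FPKM in DMEM and 2.19-fold lower, 43.0 FPKM, in SCM, against 1.30-fold for the JUN protein genes. Fosl1 and Fosl2 together held 38.4% of that sum in DMEM and 25.5% in SCM, and Fos held 61.5% and 74.4%. Counted as reads, not per length, the shares of Fosl1 and Fosl2 were 70.0% (69.2 to 70.7, exact binomial interval) and 56.3% (55.1 to 57.6), because the Fosl2 row is 9680 bases long. The share was lower in SCM on both scales. Fos exceeded Fosl2 1.81-fold in DMEM and 3.26-fold in SCM. In both media Jun outweighed Fos, by 4.08-fold in DMEM and 5.27-fold in SCM.

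**Figure D3:**
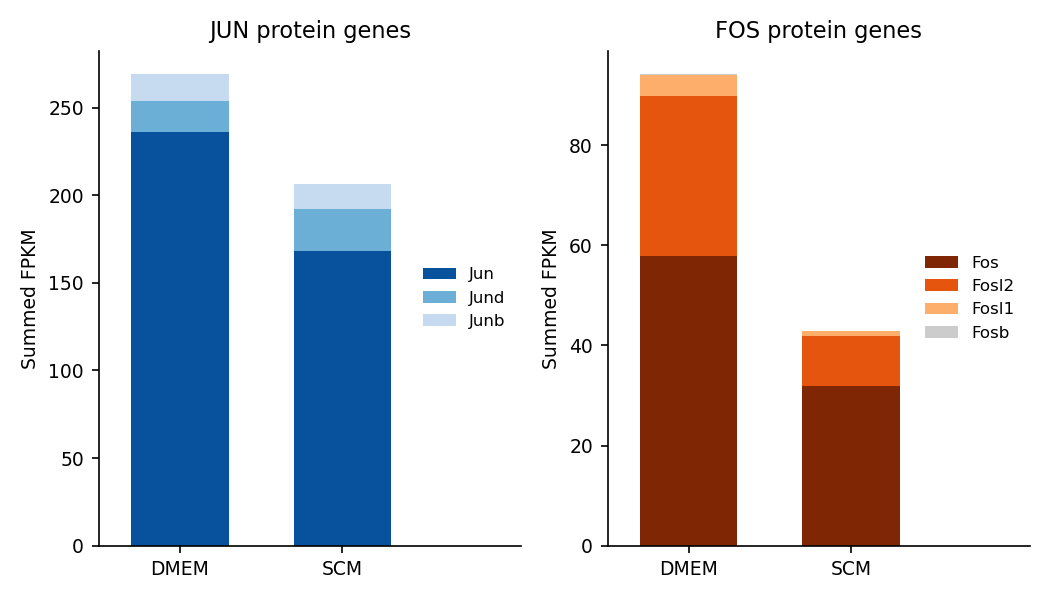
Stacked FPKM of the JUN protein genes (left) and the FOS protein genes (right) in the DMEM and SCM libraries, 1 library each. Jun makes up most of the left bars at 87.8% and 81.7%, and in the right bars Fosl2 shrinks from 32.0 to 9.82 FPKM while Fos goes from 57.9 to 32.0.

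Atf3 was the most abundant member in both media. DMEM gave 342 FPKM (21405 reads) and SCM 294 FPKM (23226 reads), ranks of 57 and 68 among all rows. The SCM level was 1.16-fold lower (1.14 to 1.18). Its log2 ratio of -0.22 was within 2-fold, and 27.9% of rows tested lay at or below it. Atf3 and Jun together held 81.6% of the FPKM of the 10 members in DMEM and 84.8% in SCM.

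Batf and Batf3 encode short bZIP proteins best known from lymphocytes and dendritic cells. Batf had 0 reads in both libraries, which leaves room for 3 reads, or 0.0734 FPKM in DMEM and 0.0582 in SCM. Batf3 stood at 3.53 FPKM in DMEM (164 reads) and at 2.37 FPKM in SCM (139 reads), a 1.49-fold lower level (1.18 to 1.88) with a log2 ratio of -0.43.

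In DMEM the levels descended from Atf3 through Jun, Fos, Fosl2, Jund, Junb, Fosl1, Batf3 and Fosb to Batf. The counting intervals of Fosl1 and Batf3 overlapped (3.74 to 4.80 and 3.01 to 4.11 FPKM), as did those of Fosb and Batf. In SCM the order was Atf3, Jun, Fos, Jund, Junb, Fosl2, Batf3, Fosl1, Fosb and Batf, and there the intervals of Fosb and Batf overlapped. Fosl2 thus stood above Jund and Junb in DMEM and below both in SCM. Whether these changes of order exceed the variation between cultures cannot be told with 1 library per medium.

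Further rows share bases with members, and the sources used here do not state whether reads were counted by strand. The antisense RNA gene Junos shares 232 bases with Jun, with 64 reads in DMEM and 34 in SCM against 21906 and 19690 for Jun. Gm11175 lies across 877 bases of Jund, 52.6% of its length, with 9 and 32 reads. Junb shares 173 bases with Prdx2, which had 27.5 and 25.4 FPKM. Reads of these pairs cannot be told apart without strand. The 3 protein-coding genes nearest to Fosl2 by distance between log2(FPKM + 1) values over the 2 libraries, of 6538 searched, were Shmt2, Slc38a2 and Fgf5. Shmt2, a folate enzyme gene, had 28.7 and 10.1 FPKM at a distance of 0.16, Slc38a2, an amino acid transporter gene, 36.0 and 9.70 FPKM at 0.17, and the growth factor gene Fgf5 33.3 and 8.35 FPKM at 0.22.

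The genes around AP-1 were taken from 11 lists, beginning with the kinases upstream. Of 19 genes of the JNK pathway, 15 were measured, with a median log2 ratio of -0.10. Among these, 0 lay 2-fold above and 1 below, against 3.1% and 2.8% of all rows tested. The lower gene was Map3k4, an upstream kinase gene of JNK and p38, at 16.1 FPKM in DMEM against 6.89 in SCM. Among the genes of the JNK kinases themselves, which act on JUN directly, Mapk8 had 1.96 and 1.75 FPKM and Mapk9 26.1 and 29.5 FPKM. Mapk10 stayed below the filter, with 30 reads in DMEM and 73 in SCM, a ratio of 1.93 (1.25 to 3.06). Map2k7, which activates JNK, had 21.3 and 16.5 FPKM. In the ERK and p38 pathways, 0 of 19 measured genes lay 2-fold apart, against 5.89% of all rows tested. The median was 0.07, with the p38 gene Mapk14 at 7.99 and 11.8 FPKM.

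The phosphatases and feedback inhibitors of these kinases went both ways. Of 13 measured, 1 lay 2-fold above and 2 below, against 3.1% and 2.8% of all rows tested. The log2 ratio was above 0 for 6 and below 0 for 7, while 54.2% of all rows tested lay below 0. Dusp10 and Dusp8, whose proteins act on JNK and p38, were the lower genes, Dusp10 at 59.4 FPKM in DMEM against 26.9 in SCM and Dusp8 at a log2 ratio of -1.04. Dusp6, the ERK phosphatase gene, had 5.57 and 20.0 FPKM. Dusp5, a nuclear ERK phosphatase gene, had 14.3 and 7.34 FPKM, within 2-fold on the scale used.

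No measured gene of the serum response factor list or of the JUN and FOS turnover list lay 2-fold apart, while 5.89% of all 12334 rows tested did. Most rows tested thus stayed within 2-fold as well. Of 6 measured genes of serum response factor and its partners, 0 were 2-fold apart, with a median of -0.25. Elk3 stood at 9.32 FPKM in DMEM against 6.70 in SCM, and Elk4 at 14.1 against 19.8. Among 11 genes for turnover of JUN and FOS, 0 lay 2-fold apart, with a median of -0.03. Fbxw7, a ubiquitin ligase subunit gene for JUN, had a log2 ratio of -0.20. Cofactors had 0 of 14 measured genes 2-fold apart and a median of -0.02, and Irf4, a partner of BATF proteins in lymphocytes, had 8.04 and 12.2 FPKM.

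Other bZIP genes encode proteins that can pair with JUN, FOS or ATF3 or with one another. Of 35 genes, 28 were measured, and 0 lay 2-fold above and 2 below, against 3.1% and 2.8% of all rows tested. A log2 ratio under 0 was found for 19 of the 28, against 54.2% of all rows tested, and the median was -0.20. The lower genes were Atf4, the regulator of the amino acid response, at 86.1 FPKM in DMEM against 17.3 in SCM, and Atf5, at 85.4 against 32.7. Cebpg, a partner of ATF4, had 25.3 and 15.7 FPKM, and Creb5 had 4.02 and 2.18. Jdp2, which lies between Fos and Batf, had 8.72 and 6.41 FPKM.

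Immediate early genes outside the family lay on both sides of 0. Of 23 genes, 16 were measured, and 1 lay 2-fold above and 1 below, against 3.1% and 2.8% of all rows tested. The log2 ratio was above 0 for 6 and below 0 for 10, while 54.2% of all rows tested lay below 0. The median was -0.13. The orphan receptor gene Nr4a1 stood at 1.25 FPKM in DMEM against 3.98 in SCM, and Ccn1, a matricellular protein gene, 6.39 and 0.729. Egr3 had 0.367 and 1.31 FPKM, a difference that stayed within 2-fold after adding 1 FPKM, and Ier3 3.83 and 7.14.

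Known AP-1 target genes were mixed. Of 32 genes, 22 were measured, and 1 lay 2-fold above and 4 below, against 3.1% and 2.8% of all rows tested. Above 0 lay 14 and below 0 lay 8, while 54.2% of all rows tested lay below 0. The median was 0.13. Lower genes included Hmox1, which encodes the haem-degrading enzyme, at 39.8 and 10.8 FPKM, and Ccl2 and Plaur. Spp1, which encodes osteopontin, was the higher member at 2.25 and 9.75 FPKM, while Ccnd1, the cyclin D1 gene, had 128 and 211 FPKM.

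Of 23 genes linked with JUN or with the repair state of Schwann cells, 18 were measured. Of these, 3 lay 2-fold above and 5 below, with a median of -0.37. Of all rows tested, 3.1% lay 2-fold above and 2.8% below, with a median of -0.03. Lower genes included the neurotrophic factor gene Gdnf at 43.8 and 11.0 FPKM. The higher ones were Gfra1, Megf10 and Ntng1, the last with 13.1 and 42.3 FPKM. Myelin genes, which JUN is known to oppose, had 7 of 14 measured, 3 higher and 0 lower, with a median of 0.94. Whether Jun's 1.40-fold difference bears on these genes was not tested.

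**Figure D4:**
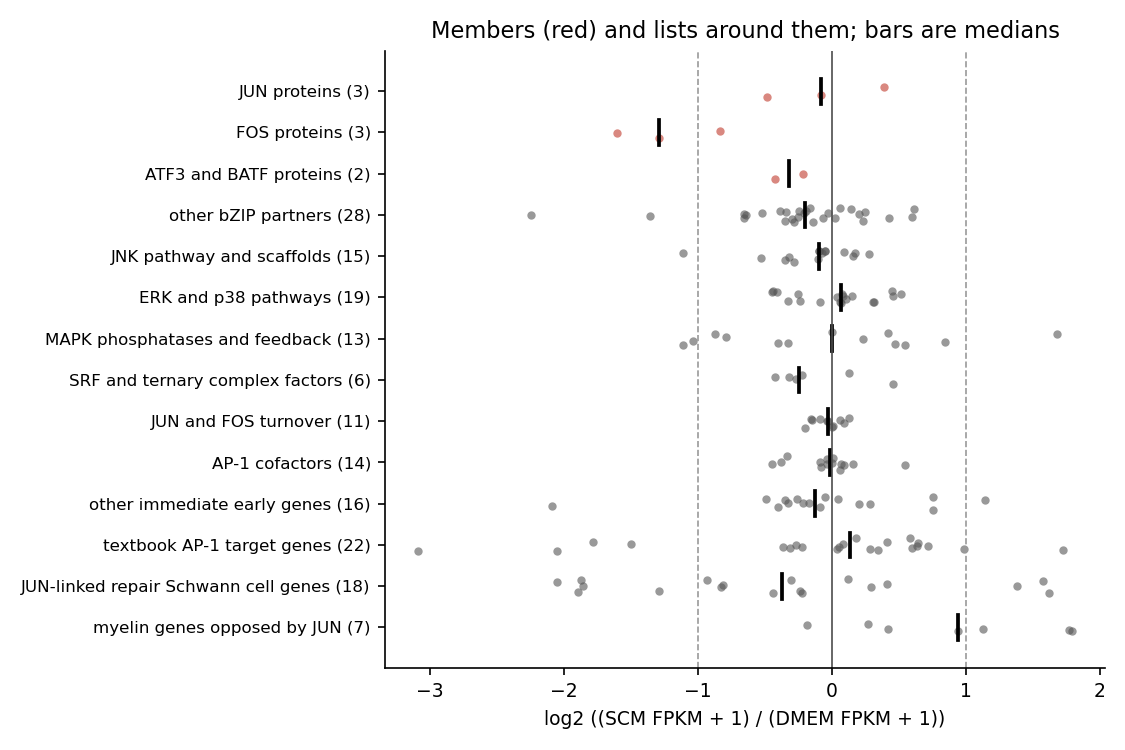
Log2 ratios (SCM over DMEM, 1 FPKM added) of the measured members (red) and of measured genes in 11 surrounding lists (grey); each point is a gene, bars are medians, numbers in brackets are measured genes and dashed lines mark 2-fold. The FOS protein genes have a median of -1.29, the JUN protein genes of -0.08 and the myelin genes of 0.94.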

How the data were processed

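Stranded libraries were prepared from total RNA, per the labels' protocols, 1 for each medium. Groups come from the sample titles, and a column was assigned to a group where its name holds that medium. The names end in 1 for DMEM and 3 for SCM, and no source used here says whether these digits number replicates. The authors deposited FPKM values with gene lengths, per the file headers. STAR 2.7.9a, featureCounts 2.0.1, cutadapt 3.1, Trimmomatic 0.39 and Trim Galore, and the builds GRCm38.p6 and mm10, are listed without role or order, per the submitters' processing notes.

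The products of FPKM and gene length (in kb) added up to 1000000 for both columns, and 100% of rows lay within 0.01 of a whole read, which gave the read counts. No count model was fitted, since neither medium has a replicate. Ratio intervals are Clopper-Pearson intervals of the split of a row's reads, and intervals of levels are exact Poisson intervals. The gene starts in the table differed from GENCODE M21 for all 10 members, so positions are those of GENCODE M21 on GRCm38, matched by gene identifier. The steps were run on simulated reads with planted changes and counting error alone. That run cannot speak to variation between cultures. Computation used Python 3.11.15, pandas 2.3.3, NumPy 2.4.6 and SciPy 1.17.1.

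The members and lists were chosen with earlier results of these data known. Genes named were all 10 members, up to 4 genes per list with the largest absolute log2 ratio, the 3 genes nearest to the member with the largest ratio, and rows overlapping a member. Marker genes beyond these (Sox10, Ptprc, Col1a1, Lum, Rbfox3, Syt1, Cldn1 and Alb) and Mapk8, Mapk9, Mapk10, Jdp2, Ccnd1, Gfra1, Megf10 and Plaur were named as well after their values were seen. Some genes that the rule named are not reported here. Of the 14 lists, members included, some share genes.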

Additional observations from a re-analysis of the deposited data

How the results depend on the processing

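No paired analysis was possible because 1 library per medium was analysed and the sample titles number no replicates. The same absence limits every difference, and no replicate could be left out. Of 54 values of the 8 measured members under other pseudocounts, filters and scalings, 54 kept their sign. The log2 ratio of Fosl2 ran from -1.74 to -1.45 and that of Fosl1 from -1.81 to -0.81. Fosl2 was called lower under every alternative run. The number of members called lower was 1 with a pseudocount of 3 FPKM, with a filter of 5 FPKM (Fosl1 falls below it) and at a threshold of 3-fold. The number higher was 0 throughout. The 727 rows called of 12334 tested became 1306 with a pseudocount of 0.1 FPKM and 279 with 3 FPKM. At a threshold of 1.5-fold 1902 of the 12334 were called, and at 3-fold 178. Some settings also changed the number of rows tested. With a filter of 5 FPKM 375 of 6979 were called, as TPM 2156 of 16603, and for protein-coding rows alone 407 of 10169. Among rows called, 52.5% were higher in SCM, 63.6% among protein-coding rows alone and 46.9% as TPM. The share of Jun among JUN protein genes, 87.8% in DMEM and 81.7% in SCM, was 92.1% and 88.2% by reads, and 93.0% and 87.7% without Junb. That of Fosl1 and Fosl2 among FOS protein genes was 70.0% and 56.3% by reads. Depth limits Fosb and Batf, with at most 13 reads in a library.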
